A study of Mus musculus with 6 samples.

Results

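The transcripts described here are 9 markers by which mouse haematopoietic stem cells are recognised and sorted: Kit, Ly6a, Slamf1, Cd48, Procr, Cd34, Tek, Esam and Fgd5. They were taken by gene symbol from a deposited table of 52183 genes, and each of the 9 symbols matched 1 row. RNA was sequenced from stem cells purified by flow cytometry from the bone marrow of female mice aged 4 months. There were 3 libraries labelled Thbs1 knockout and 3 labelled control, each made from 2 ng of total RNA. All cells were primary, and both groups share sex, age and tissue. The labels name no allele, strain or type of control animal, and they do not say which antigens set the sort gate or whether libraries came from separate animals. The p-values thus cover the scatter among 6 libraries and no more, and that scatter may be technical. Transcript was measured, not surface protein.

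Haematopoietic stem cells renew the blood for life and are found by combinations of surface antigens, since no single antigen is enough. In mice, cells that lack mature lineage antigens and carry both KIT and SCA-1 (the product of Ly6a) hold the stem and early progenitor cells. Within them the stem cells are SLAMF1-positive, CD48-negative, rich in the endothelial protein C receptor (Procr) and ESAM, and largely CD34-negative in adults. TIE2 (Tek) and the guanine nucleotide exchange factor FGD5 mark the same compartment, FGD5 mostly through reporter alleles, since it lies inside the cell.

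Thbs1, the gene named in the label, was not lower in the libraries labelled knockout: it stood at 10.8, 8.50 and 7.68 FPKM there, against 4.12, 13.8 and 2.33 FPKM in control libraries 1 to 3. FPKM counts fragments per kilobase of exon, scaled to the fragments mapped in a library. The deleted part of Thbs1 is not given in the labels, so exons that remain could be read, and each direction below rests on the labels alone. Its groups overlapped (log2 change 0.65 ± 0.43 SE, limma adjusted p = 0.503). Depths recovered from the steps between FPKM values were 25760000 to 30900000 reads in the libraries labelled knockout and 22710000 to 25950000 in the controls. With all annotated exons of a gene taken as its length, an estimated 187 to 40554 reads lay behind each value of the 9 markers. The lengths used for the deposited values are not given. These read numbers cover counting error only, because amplified reads are not independent molecules. Some mature lineage markers were near 0 and others were not: in each of the 6 libraries Cd3e and Cd8a stayed at or below 0.08 FPKM, the B cell receptor gene Cd79a at or below 0.35 FPKM and the endothelial cadherin Cdh5 at or below 0.16 FPKM, while Ly6g was at 0. Another B cell receptor gene, Cd79b, was at 23.3 to 25.2 FPKM in the libraries labelled knockout and 27.2 to 29.6 FPKM in the controls. Pecam1, another endothelial marker, was at 7.95 to 9.73 FPKM in the libraries labelled knockout and 9.68 to 11.3 FPKM in the controls. The macrophage lysozyme gene Lyz2 was at 325 to 359 FPKM in the libraries labelled knockout and 343 to 383 FPKM in the controls. The platelet factor gene Pf4 was at 159 to 245 FPKM in the libraries labelled knockout and 270 to 354 FPKM in the controls. Whether stem cells or other cells carried the transcripts of Cd79b, Pecam1, Lyz2 and Pf4 was not tested. Of the 12555 genes tested with limma, 1.56% passed an adjusted p of 0.05 in either direction, with 0.566% of the tested genes higher and 0.996% lower under the knockout label.

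Of the 9 markers, 1 passed this test: Ly6a, which was lower. The 2 groups did not overlap for 7 of the 9, with 4 higher (Procr, Tek, Esam and Fgd5) and 3 lower (Ly6a, Slamf1 and Cd34) in the libraries labelled knockout, although Cd34 and Kit changed sign after rescaling to TPM. Over all tested genes the groups did not overlap in 22.8%, with 12.6% higher and 10.1% lower. An unadjusted p below 0.05 was reached by 5 markers and by 16.4% of all tested genes. The median log2 change was -0.09 over the 9 markers and 0.01 over all tested genes. Changes are differences of log2(FPKM + 1), libraries labelled knockout minus control, which makes changes of low genes look smaller. An exact two-sided permutation test over libraries gave 0.1, the smallest p that 3 against 3 allows, for each of the 7 markers without overlap, and 0.5 for Kit and Cd48. Groups of 3 without overlap always give 0.1, so for these 7 the test only restates the lack of overlap. Errors are limma's moderated standard errors, and 95% intervals are not adjusted for the number of genes.

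**Figure D1:**
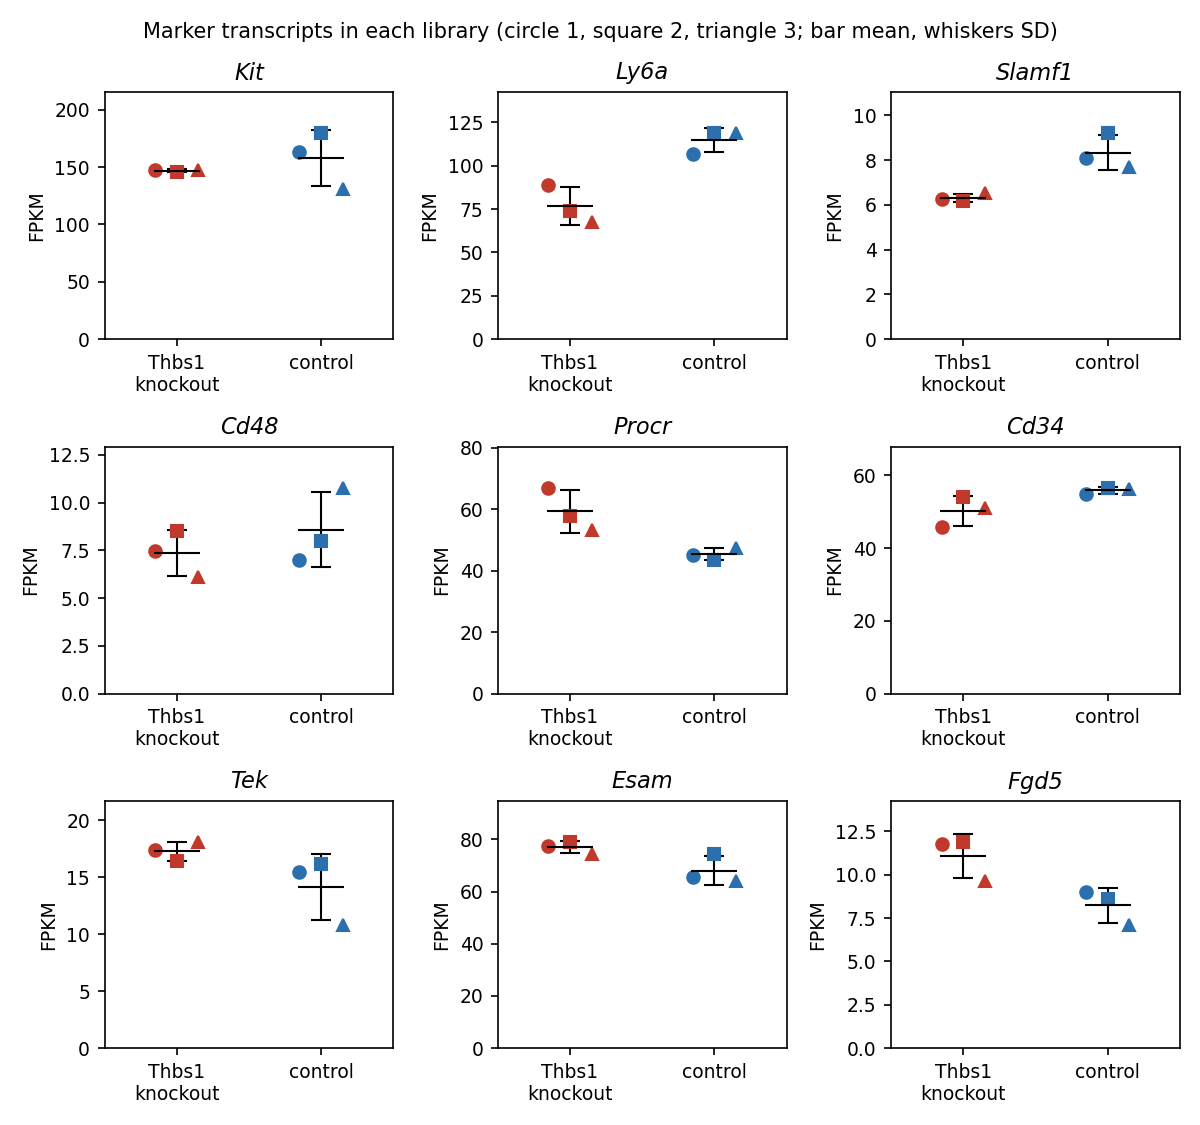
FPKM of the 9 markers in each library, with the libraries labelled Thbs1 knockout on the left of each panel and the controls on the right. Horizontal bars are means and whiskers are SD over 3 libraries. For Ly6a the libraries labelled knockout lie between 67.6 and 89.2 FPKM, all below the controls, and for Procr between 53.1 and 67.0 FPKM, all above them.

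The promoters of members with an entry in RefSeq (GRCm38.p6) are shown for Procr and Fgd5, which were higher without overlap, and for the neighbouring genes Slamf1 and Cd48, of which the first was lower without overlap and the second overlapped. Tek, also higher without overlap, Cd34, also lower without overlap, and Kit had entries too but are not shown. Each run is the 120 bases on the plus strand that end just before the first annotated start, with matches to 4 motifs in capitals. The motifs, searched on both strands, were GATAA for GATA factors, GGAAG for ETS factors, TGTGGT for RUNX factors and the palindrome CAGCTG for E-box factors. None of them contains another.
Procr promoter, chr2:155750997-155751116: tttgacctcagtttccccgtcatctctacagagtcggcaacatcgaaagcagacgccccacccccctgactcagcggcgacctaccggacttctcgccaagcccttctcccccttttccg
Fgd5 promoter, chr6:91978758-91978877: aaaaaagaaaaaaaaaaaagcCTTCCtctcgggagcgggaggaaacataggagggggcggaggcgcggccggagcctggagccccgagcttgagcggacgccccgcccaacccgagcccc
Slamf1 promoter, chr1:171767007-171767126: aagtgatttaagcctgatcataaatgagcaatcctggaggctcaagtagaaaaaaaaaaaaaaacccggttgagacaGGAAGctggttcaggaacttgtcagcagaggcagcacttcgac
Cd48 promoter, chr1:171681872-171681991: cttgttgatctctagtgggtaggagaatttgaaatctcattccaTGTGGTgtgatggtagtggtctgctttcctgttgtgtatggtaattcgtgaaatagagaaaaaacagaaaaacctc

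Over the 250 bases before the RefSeq start, 7 of the 9 markers had an entry; Ly6a and Esam had none. The ETS letters were present in 5 of the 7, against 64.1% of 32851 windows of the same length. The GATA letters were present in 1 of the 7 (Slamf1), against 22.6% of windows. The RUNX letters were present in 1 of the 7 (Cd48), against 14.1% of windows, and the E-box in 1 of the 7 (Procr), against 13.0%. The E-box of Procr and its ETS letters lie outside the bases shown, as do the GATA letters and another ETS match of Slamf1. The Tek window held none of the 4. A match is a description of letters and not of binding.

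Kit and Ly6a encode the pair of antigens of the positive gate. Kit (chromosome 5, 75574916 to 75656722, GRCm38) encodes the receptor tyrosine kinase for stem cell factor, on which stem cell survival depends. It was the highest of the 9 in every library, at 147, 145 and 147 FPKM in libraries 1 to 3 labelled knockout and 163, 180 and 131 FPKM in control libraries 1 to 3. The Kit groups overlapped, and the spread lay almost wholly in the controls, with a coefficient of variation of 0.804% in the libraries labelled knockout and 15.6% in the controls. Over all tested genes the median was 10.1% in the libraries labelled knockout and 10.2% in the controls. The change was -0.09 ± 0.11 (SE) with a 95% interval of -0.33 to 0.14 (adjusted p = 0.709 by limma). A difference of a size within that interval is not excluded. Without control library 3 the change was -0.22 (adjusted p = 0.159), and without control library 2 it was 0.003 (adjusted p = 0.994).

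Ly6a (chromosome 15, 74994877 to 74998031) encodes SCA-1, a small protein held to the membrane by a lipid anchor and induced by interferons. It had 89.2, 73.9 and 67.6 FPKM in the libraries labelled knockout and 107, 119 and 119 FPKM in the controls. The groups were apart, with the highest library labelled knockout below the lowest control. Mean levels were 76.9 ± 11.1 FPKM in the libraries labelled knockout and 115 ± 6.78 FPKM in the controls (SD, n = 3 each), a difference of -33.0%. Ly6a fell by 0.58 ± 0.10 (SE) on the log2 scale, with a 95% interval of -0.81 to -0.35 (limma adjusted p = 0.0286). The call was lost, with adjusted p of 0.104, 0.0849, 0.0954 and 0.0833 in limma, without knockout-labelled library 2, knockout-labelled library 3, control library 2 or control library 3, where the change was between -0.56 and -0.49. It was also lost with no filter on low genes (adjusted p = 0.210) and with limma's variance model without trend (adjusted p = 0.0932). After rescaling to TPM the change was -0.38 (adjusted p = 0.0309), or -0.57 relative to the median of all genes. In RNA from a sorted population, fewer cells that express a gene and less RNA per cell cannot be told apart.

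Close relatives of Ly6a lie beside it on chromosome 15, and reads could be shared between them. The longest Ly6a transcript was 85.6% identical to Ly6i over 804 bases and 84.2% identical to Ly6c1 over 852 bases. Both were low, at no more than 0.63 and 0.35 FPKM in any of the 6 libraries. Of 15 other genes of this cluster, 14 did not reach the level tested. The exception, Ly6e, whose product is a related antigen, was 247 ± 7.32 FPKM in the libraries labelled knockout and 263 ± 21.4 FPKM in the controls (log2 change -0.09 ± 0.08 SE, adjusted p = 0.620). Whether Ly6a and Ly6e differed in their change was not tested.

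Slamf1 and Cd48 are neighbours on chromosome 1 and encode members of the SLAM family of cell adhesion receptors, with SLAMF1 kept and CD48 left out by the usual stem cell gate. Slamf1 (171767127 to 171801184) had 6.28, 6.17 and 6.51 FPKM in the libraries labelled knockout and 8.11, 9.20 and 7.70 FPKM in the controls. All values of the libraries labelled knockout were below all control values, but the difference did not pass the test (log2 change -0.35 ± 0.10 SE, 95% interval -0.58 to -0.12, adjusted p = 0.133 by limma). After rescaling to TPM, under which the median of all genes shifted to 0.19, the Slamf1 change was -0.18. Cd48 (171682009 to 171705258) had 7.48, 8.50 and 6.11 FPKM in the libraries labelled knockout and 6.97, 8.01 and 10.8 FPKM in the controls. The Cd48 groups overlapped widely, and its interval ran from -0.55 to 0.17 (adjusted p = 0.613), the widest of the 9. The Cd48 change was -0.03 without control library 3, -0.08 without knockout-labelled library 3 and -0.31 without control library 1, and -0.007 after rescaling to TPM. Cd48 also had the fewest estimated reads, between 187 and 291 a library.

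The ratio of Slamf1 to Cd48 within a library does not depend on how libraries are scaled. It was 0.840, 0.726 and 1.07 in the libraries labelled knockout and 1.16, 1.15 and 0.714 in the controls. Control library 3 lay below the other controls and below all libraries labelled knockout, so the groups overlapped (exact two-sided permutation p = 0.6). The remaining SLAM receptors and adaptors gave no call: of 10 genes listed, 3 were tested and 0 passed by limma, with 1 at an unadjusted p below 0.05. That was Cd244a, which encodes the receptor for CD48, with 0.44, 0.15 and 0.34 FPKM in the libraries labelled knockout and 1.30, 1.61 and 1.05 FPKM in the controls. It entered the test through the controls alone, since all 3 libraries labelled knockout lay below the 1 FPKM that the filter asks of 3 libraries, so a difference was built into its choice and its adjusted p of 0.0836 supports nothing. Of the other SLAM receptors, Cd84 had 11.1 ± 0.422 FPKM in the libraries labelled knockout and 13.0 ± 1.54 FPKM in the controls, and Ly9 had 6.28 ± 1.97 FPKM in the libraries labelled knockout and 4.77 ± 1.41 FPKM in the controls. Within its 4420 bases the Slamf1 transcript carries a stretch of 200 bases that is 96.5% identical to another transcript, so reads from there are uncertain in origin.

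Procr (chromosome 2, 155751117 to 155755471) encodes the endothelial protein C receptor, which binds protein C at the cell surface and marks stem cells retained in the marrow. It lies 37.6 Mb from Thbs1 on the same chromosome. Its level was 67.0, 57.7 and 53.1 FPKM in the libraries labelled knockout and 45.2, 43.6 and 47.4 FPKM in the controls. The groups did not overlap, and the controls lay closer together than the libraries labelled knockout, with coefficients of variation of 11.9% in the libraries labelled knockout and 4.24% in the controls. The mean was 30.5% higher, but the test was not passed (log2 change 0.37 ± 0.09 SE, 95% interval 0.17 to 0.57, limma adjusted p = 0.0857). When only genes of at least 5 FPKM on average were tested, the adjusted p was 0.0477, and after rescaling to TPM it was 0.00877. Procr was called in these 2 of the 15 other settings only. Rescaling to TPM shifted the median of all tested genes to 0.19, and the Procr change relative to that median was 0.39. With 1 library left out, Procr was called in 0 of 6 fits, with limma adjusted p of 0.0849 to 0.222.

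Set against each other within a library, Procr and Ly6a gave a ratio of 0.751, 0.781 and 0.787 in the libraries labelled knockout and 0.423, 0.367 and 0.399 in the controls. The ratio was 1.95-fold higher in the libraries labelled knockout, and the groups lay far apart beside their spread. On the log2 scale the difference was 0.97, with an SD of 0.0359 over the libraries labelled knockout and 0.103 over the controls (exact two-sided permutation p = 0.1, the smallest possible here). Procr was higher and Ly6a lower without overlap, so their ratio had to separate the groups and that p was fixed in advance. The pair was chosen with the changes of both genes known, so the ratio is a description and adds no support. The spread of the ratio was smaller than that of either gene in the libraries labelled knockout, and larger than either in the controls. In the libraries labelled knockout, Procr and Ly6a were both highest in library 1 and lowest in library 3. The controls did not share such an order.

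**Figure D2:**
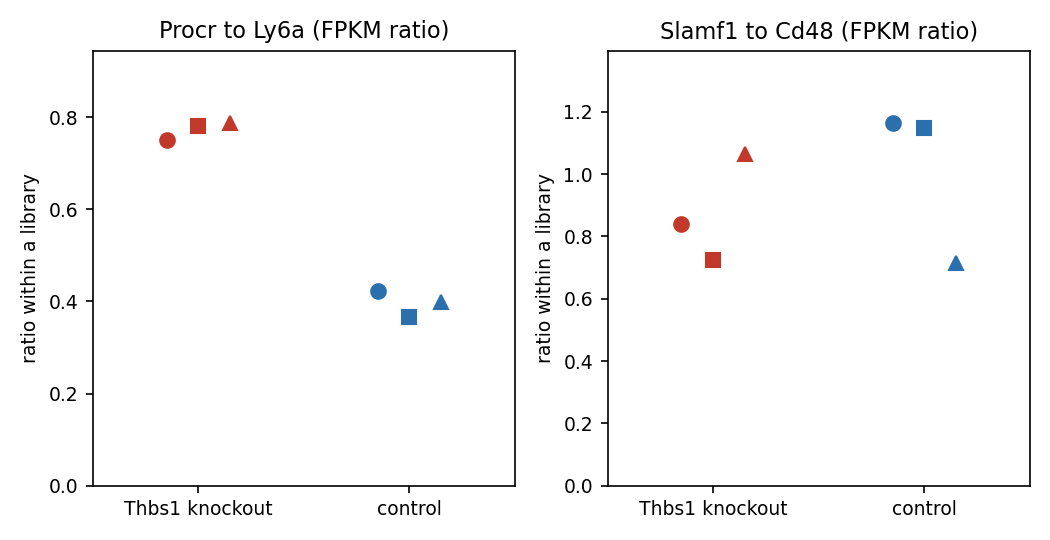
FPKM ratios within each library, Procr to Ly6a on the left and Slamf1 to Cd48 on the right, with the libraries labelled Thbs1 knockout left of the controls in each panel. The Procr to Ly6a ratio lies between 0.751 and 0.787 in the libraries labelled knockout and between 0.367 and 0.423 in the controls, while the Slamf1 to Cd48 ratios overlap.

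Of 14 genes of the protein C and protease-activated receptor system, 9 were tested and 0 passed by limma, with 0 at an unadjusted p below 0.05. Proc, the ligand of PROCR, was at 0 FPKM in all 6 libraries. F2r, which encodes the thrombin receptor PAR1, stood at 74.2 ± 2.21 FPKM in the libraries labelled knockout and 62.8 ± 12.2 FPKM in the controls (adjusted p = 0.356). Itgb1, the integrin beta subunit by which these cells adhere, had 103 ± 6.75 FPKM in the libraries labelled knockout and 103 ± 16.7 FPKM in the controls.

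Cd34 (chromosome 1, 194938819 to 194961279) encodes a sialomucin that adult mouse stem cells carry less of than their progeny. It had 45.8, 53.9 and 50.9 FPKM in the libraries labelled knockout and 54.7, 56.6 and 56.2 FPKM in the controls. The groups lay next to each other without overlap, and the test was not passed (log2 change -0.15 ± 0.08 SE, 95% interval -0.32 to 0.02, adjusted p = 0.354). Without knockout-labelled library 1 the change was -0.09. After rescaling to TPM, which shifted the median of all tested genes to 0.19, the Cd34 change was 0.05, or -0.15 relative to that median. An antisense gene, Gm16897, shares 148 bases with the exons of Cd34, 2.03% of their length, and reads of the pair cannot be told apart there because the library method does not mark strand. The Cd34 transcript also holds a stretch of 216 bases that is 93.1% identical to another transcript. None of the other 8 markers overlapped the exons of another annotated gene.

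Tek and Esam encode proteins first known from blood vessels. Tek (chromosome 4, 94739289 to 94874976), the TIE2 receptor for angiopoietins, had 17.4, 16.4 and 18.1 FPKM in the libraries labelled knockout and 15.5, 16.2 and 10.8 FPKM in the controls. The groups were barely apart, and control library 3 lay well below the other controls. The change was 0.29 ± 0.14 (SE), with a 95% interval of -0.01 to 0.59 (limma adjusted p = 0.330), and it was 0.12 without control library 3. Esam (chromosome 9, 37528078 to 37538319), an adhesion molecule of endothelial tight junctions, had 77.4, 78.9 and 74.4 FPKM in the libraries labelled knockout and 65.5, 74.3 and 64.0 FPKM in the controls. Its lowest library labelled knockout was just above its highest control, and the test was not passed (log2 change 0.18 ± 0.08 SE, 95% interval 0.01 to 0.35, adjusted p = 0.278).

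Relatives of these receptors gave no call either. Of 6 genes of the angiopoietin and TIE list 3 were tested and 0 passed by limma, with 2 at an unadjusted p below 0.05. Angpt1, the activating ligand of TIE2, stood at 73.7 ± 13.6 FPKM in the libraries labelled knockout and 95.9 ± 10.4 FPKM in the controls (adjusted p = 0.185), and Tie1, a co-receptor whose transcript is 72.9% identical to Tek over 973 bases, had 45.0 ± 4.12 FPKM in the libraries labelled knockout and 41.1 ± 5.11 FPKM in the controls. The groups of Angpt1 overlapped, since knockout-labelled library 3 was at 86.6 FPKM and control library 3 at 85.2 FPKM. For the relatives of CD34 and ESAM, 5 of 9 genes were tested, with log2 changes of 0.03 to 0.31 and a median of 0.13. Of these, 0 passed by limma, and the unadjusted p was below 0.05 for 1, beside the same 16.4% of all tested genes. F11r, the junctional adhesion molecule A gene, had 51.2 ± 1.13 FPKM in the libraries labelled knockout and 50.2 ± 3.43 FPKM in the controls. The sialomucin gene Emcn had 7.77 ± 1.39 FPKM in the libraries labelled knockout and 6.66 ± 0.971 FPKM in the controls.

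Fgd5 (chromosome 6, 91978878 to 92076004) encodes an exchange factor for the small GTPase CDC42, and reporter alleles at this gene label mouse stem cells. It had 11.8, 11.9 and 9.63 FPKM in the libraries labelled knockout and 9.0, 8.60 and 7.11 FPKM in the controls. The groups did not overlap, and the mean was 34.6% higher, the largest relative difference upward among the 9 markers. It did not pass the test (log2 change 0.39 ± 0.12 SE, 95% interval 0.12 to 0.65, limma adjusted p = 0.147), and passed it only after rescaling to TPM among the 15 other settings (adjusted p = 0.0277). Of 10 genes of the FGD family and the CDC42 pathway 8 were tested and 0 passed by limma, with 1 at an unadjusted p below 0.05. Cdc42 itself was 275 ± 8.36 FPKM in the libraries labelled knockout and 275 ± 6.33 FPKM in the controls, and Was, which encodes an actin regulator that CDC42 activates, was 46.5 ± 2.77 FPKM in the libraries labelled knockout and 61.0 ± 5.75 FPKM in the controls (adjusted p = 0.0703).

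**Figure D3:**
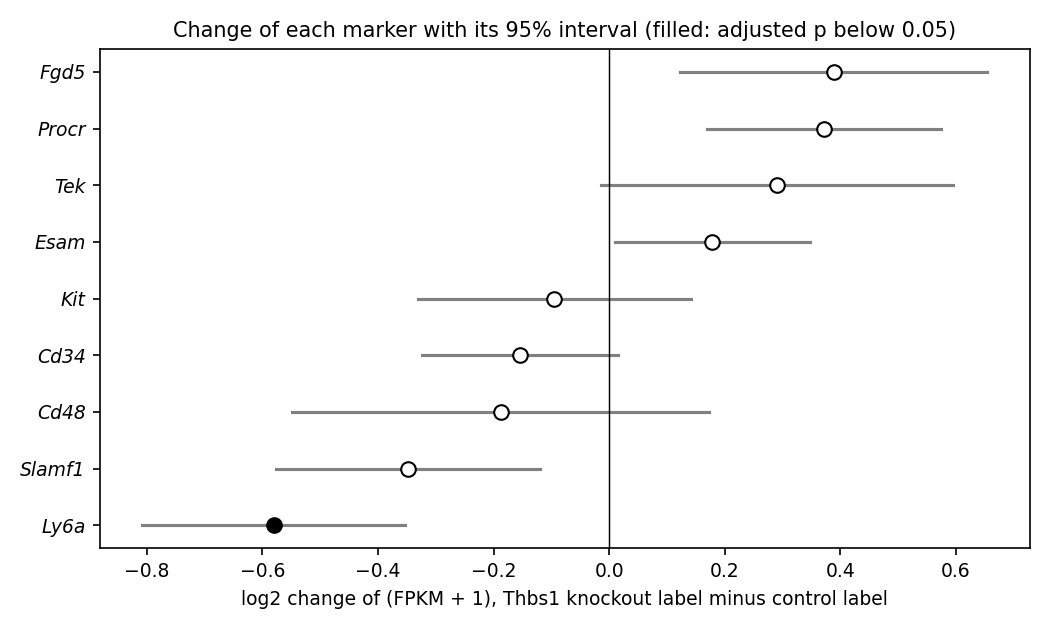
Log2 change of (FPKM + 1) for each marker, libraries labelled Thbs1 knockout minus controls, with the unadjusted 95% interval of limma as a line. The point of Ly6a at -0.58 is filled because its adjusted p was below 0.05, and the other 8 are open, from Slamf1 at -0.35 to Fgd5 at 0.39. The signs of Kit and Cd34 change after rescaling to TPM.

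The order of the 9 levels differed between the groups. FPKM are per length, so the order of different genes also depends on the length used for each. For Cd34 all annotated exons together span 7290 bases, while its longest transcript has 3063. The lengths behind the deposited values are not given, so the orders below hold for those values only. In the libraries labelled knockout the mean order was Kit, Esam, Ly6a, Procr, Cd34, Tek, Fgd5, Cd48 and Slamf1. In the controls it was Kit, Ly6a, Esam, Cd34, Procr, Tek, Cd48, Slamf1 and Fgd5. Procr was above Cd34 in all 3 libraries labelled knockout and below it in all 3 controls. Esam was above Ly6a in 2 of the 3 libraries labelled knockout and in 0 of the 3 controls.

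Not all neighbours in these orders were separate. In the libraries labelled knockout the ranges of Esam and Ly6a overlapped, as did those of Procr and Cd34 and those of Cd48 and Slamf1. In the controls the ranges of Cd48, Slamf1 and Fgd5 overlapped, and Tek and Cd48 met at 10.8 FPKM in control library 3. Among all 12555 tested genes, Kit, Ly6a, Esam, Cd34 and Procr lay in the upper part of the range, each above at least 89.9% of genes, Tek lay above 65.9%, and Fgd5, Cd48 and Slamf1 lay near the middle, above 52.5%, 47.1% and 44.8%.

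**Figure D4:**
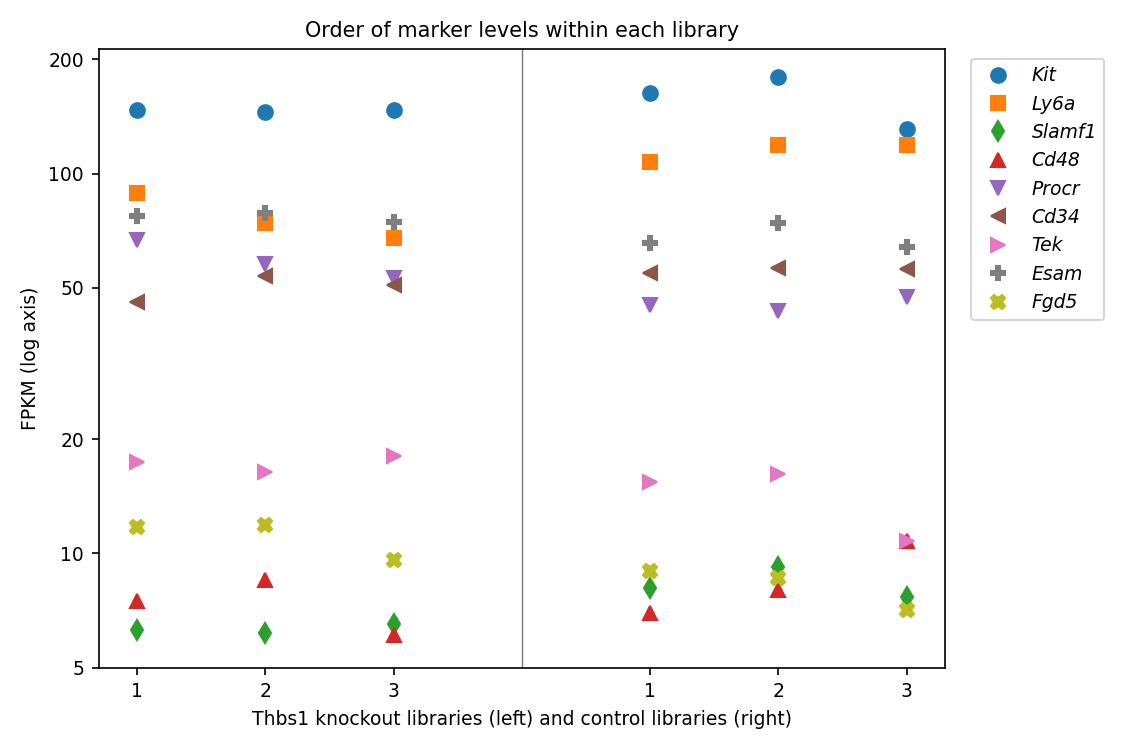
FPKM of the 9 markers on a log axis in each library, with the libraries labelled Thbs1 knockout on the left and the controls on the right. Procr lies above Cd34 in the 3 libraries labelled knockout and below it in the 3 controls, and Kit is highest throughout.

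Control library 3 stood apart from the other controls more often than any other library of its group, with the largest deviation from the group mean for 5 of the 9 markers. It was low for Kit, Tek and Fgd5 and high for Cd48 and Procr. Among the libraries labelled knockout, library 3 deviated most for 4 markers, library 1 for 3 and library 2 for 2.

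For the 7 markers whose groups did not overlap, the genes with the most similar profile were found by the mean absolute difference of log2(FPKM + 1) over the 6 libraries, after centring each gene. Closest to Ly6a were Lyl1, Zbtb12 and Tmbim6, at 0.0594, 0.0625 and 0.0673. Lyl1, a stem cell transcription factor gene, had 21.6, 18.2 and 18.6 FPKM in the libraries labelled knockout and 28.3, 28.6 and 30.2 FPKM in the controls. Closest to Procr were Cars, Trmu and Fkbp4, at 0.0350, 0.0351 and 0.0377. Fkbp4, a co-chaperone gene, had 205, 195 and 180 FPKM in the libraries labelled knockout and 147, 145 and 154 FPKM in the controls.

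Ly6a had few such neighbours, with 36 genes within 0.1, against 409 for Procr, 461 for Slamf1, 231 for Tek and 189 for Fgd5. Cd34 had 1869 and Esam 2477. The distance is not scaled to the size of a gene's changes, so genes with larger changes tend to have fewer genes within 0.1. A low count thus does not mark a profile particular to Ly6a. The closest genes were Stxbp4, Gnaq and Hipk1 to Slamf1, Bace1, Phactr2 and Smarce1 to Cd34, and Khnyn, Usp20 and Csf1 to Tek. They were Acad9, Ube2j2 and Ndufaf1 to Esam, and Zfp335, Slc25a42 and Zscan12 to Fgd5, with distances from 0.0155 (Stxbp4) to 0.0399 (Csf1) over these 15 genes.

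A further list held antigens used in progenitor gates, and the called gene among them was lower in the libraries labelled knockout. Some of these genes were well expressed in the sorted stem cells of both groups, so the list does not mark progenitors alone. Of 10 genes listed, 5 were tested, 1 fell, 0 rose, and 4 of the 5 had groups that did not overlap with the libraries labelled knockout below. Over all tested genes, 0.996% were called lower and 10.1% were lower without overlap. The median log2 change was -0.35, against 0.01 over all tested genes. Spn, which encodes the leukocyte sialoglycoprotein CD43, had 43.2, 40.7 and 40.4 FPKM in the libraries labelled knockout and 57.8, 58.9 and 59.2 FPKM in the controls, and fell by 0.49 ± 0.06 (SE) on the log2 scale (limma adjusted p = 0.00699; called in all 15 other settings).

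The rest of that list was not called. Cd27, a co-stimulatory receptor of the tumour necrosis factor receptor family, stood at 53.8 ± 1.91 FPKM in the libraries labelled knockout and 59.6 ± 2.23 FPKM in the controls (adjusted p = 0.323). Csf3r, the granulocyte colony-stimulating factor receptor gene, had 24.2, 21.7 and 25.7 FPKM in the libraries labelled knockout and 31.4, 31.7 and 29.8 FPKM in the controls, without overlap (limma adjusted p = 0.0665). Flt3, which encodes a receptor tyrosine kinase of early progenitors, had 6.09, 6.96 and 7.35 FPKM in the libraries labelled knockout and 8.15, 9.0 and 9.73 FPKM in the controls, also without overlap (limma adjusted p = 0.149). Il7r and Csf1r, antigens of lymphoid and monocytic progenitors, reached no more than 0.19 and 0.33 FPKM in any library. The summed level of 7 megakaryocyte markers moved with the groups too, at 261 to 368 FPKM in the libraries labelled knockout and 380 to 481 FPKM in the controls, most of it Pf4, with Gp6 at or below 0.07 FPKM; 0 of 6 tested megakaryocyte markers were called by limma (Pf4 adjusted p = 0.0594), with 1 at an unadjusted p below 0.05. That of 5 B cell markers was 24.2 to 27.5 FPKM in the libraries labelled knockout and 28.9 to 30.9 FPKM in the controls, almost all of it Cd79b. Summed levels of 9 granulocyte and monocyte, 8 erythroid, 8 endothelial, 8 T and NK cell and 6 stromal markers overlapped between the groups. Almost all of the granulocyte and monocyte sum was Lyz2, so its overlap says little of the other markers in that list. The single called gene of all these lineage lists was the globin gene Hbb-bt (limma adjusted p = 0.00247). Hbb-bt was between 3.54 and 4.43 FPKM in the libraries labelled knockout and between 11.95 and 19.98 FPKM in the controls. Whether other cells in the sort had a part in the marker differences was not tested.

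Most other surface antigens of stem cells were not called. Of 20 genes listed, 18 were tested, 1 rose, 1 fell and 16 were not called, with a median log2 change of -0.05. Over all tested genes 0.566% were called higher and 0.996% lower. Art4, which encodes a lipid-anchored surface protein of the ADP-ribosyltransferase family, had 84.3, 75.9 and 75.6 FPKM in the libraries labelled knockout and 47.4, 44.9 and 49.3 FPKM in the controls. It rose by 0.72 ± 0.07 (SE; adjusted p = 0.00142 by limma) and stayed called in all 15 other settings. Cd93, a C-type lectin-like receptor of progenitors and endothelium, had 13.8, 14.1 and 14.1 FPKM in the libraries labelled knockout and 20.2, 18.4 and 20.9 FPKM in the controls, and fell by 0.47 ± 0.08 (adjusted p = 0.0259). With 1 library removed, the Cd93 call held in 1 of 6 fits, and its adjusted p reached 0.0923. It held in 5 of 9 other settings with all libraries, and its adjusted p reached 0.114 there.

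The most abundant antigens of that list had overlapping groups. Adgrg1, an adhesion receptor coupled to G proteins, was 608 ± 64.4 FPKM in the libraries labelled knockout and 599 ± 42.4 FPKM in the controls, with an interval of the log2 change of -0.20 to 0.23. Cd63, a tetraspanin of endosomes and the cell surface, was 145 ± 9.04 FPKM in the libraries labelled knockout and 148 ± 13.6 FPKM in the controls, with an interval of -0.22 to 0.16.

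Of 15 genes used for stem cell reporter alleles or sought as stem cell specific, 14 were tested, 1 rose, 0 fell and 13 were not called. Their median log2 change was 0.10, against 0.01 over all tested genes. Over all tested genes 0.566% were called higher and 0.996% lower. Ndn, a growth suppressor, had 23.1, 19.0 and 18.9 FPKM in the libraries labelled knockout and 12.2, 12.5 and 14.9 FPKM in the controls, and rose by 0.59 ± 0.11 (SE; adjusted p = 0.0357 by limma). Leaving out 1 library at a time, the Ndn call held in 1 of 6 fits, with adjusted p of at most 0.117. It held in 6 of 9 other settings with all libraries, with adjusted p of at most 0.210. Pdzk1ip1, which encodes a small membrane protein used as a stem cell reporter, was 120 ± 15.8 FPKM in the libraries labelled knockout and 112 ± 10.8 FPKM in the controls. The transcription factor gene Gata2 was 103 ± 11.6 FPKM in the libraries labelled knockout and 91.6 ± 9.02 FPKM in the controls.

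Of 29 genes of the KIT pathway 28 were tested and 0 passed by limma, with 4 at an unadjusted p below 0.05 and a median log2 change of -0.03. Kitl, the ligand of KIT, reached no more than 0.20 FPKM in any library. Grb2, the adaptor that links KIT to RAS, was 104 ± 4.06 FPKM in the libraries labelled knockout and 106 ± 2.84 FPKM in the controls. Ptpn6, which encodes a phosphatase that restrains KIT, was 104 ± 5.61 FPKM in the libraries labelled knockout and 98.1 ± 3.86 FPKM in the controls.

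**Figure D5:**
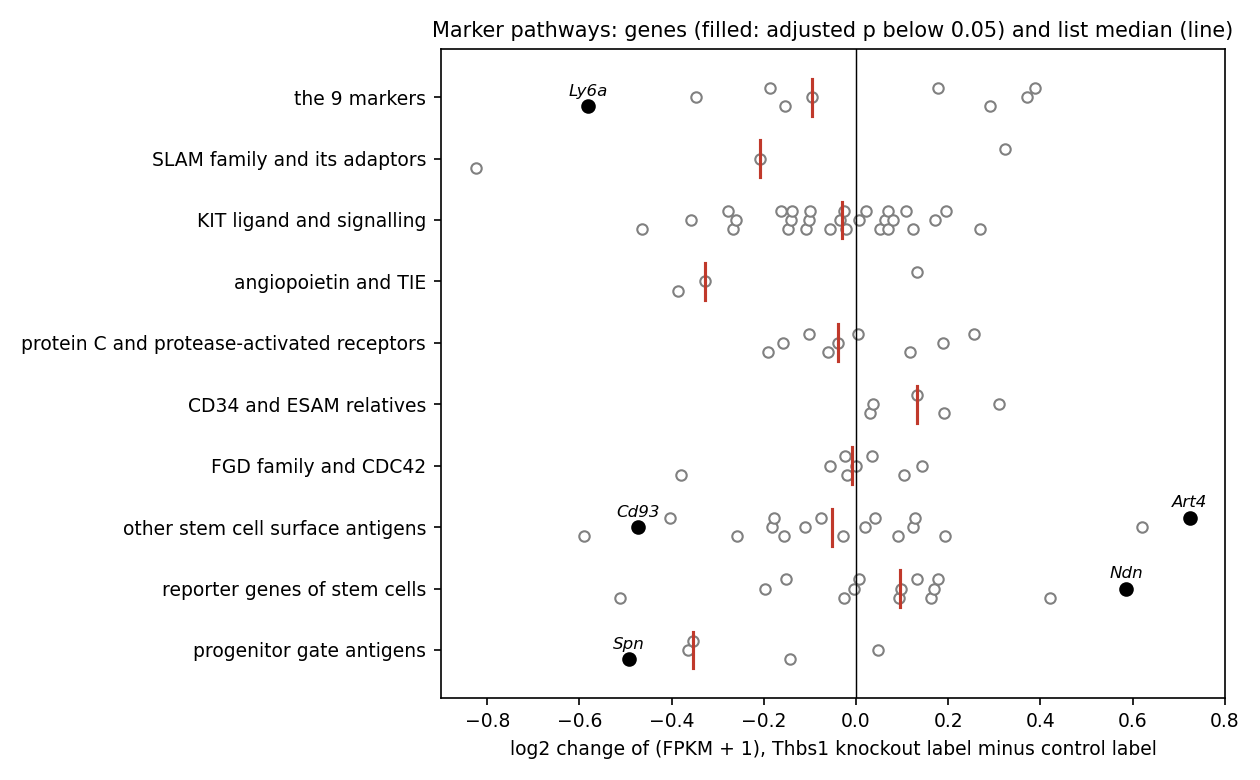
Log2 change of (FPKM + 1), libraries labelled Thbs1 knockout minus controls, for the tested genes of each list, with a red line at the list median and filled points for genes with an adjusted p below 0.05. Spn among the progenitor antigens, Cd93 and Art4 among other surface antigens, Ndn among reporter genes and Ly6a among the 9 markers are the called genes.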

How the data were processed

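The authors' deposited table holds FPKM values with 2 decimals for 6 libraries; FPKM is stated in the table's name, and libraries are as per the file headers. RNA was made into libraries with SMART-Seq v4, per the labels' protocols. FastQC 0.11.5, STAR, edgeR, GRCm38 and mm10 appear in the submitters' processing notes; how each was used, and with which annotation, is not given in the sources used here. All 52183 identifiers matched GENCODE M21 (GRCm38), which gave positions and exon lengths. Depth is the read number at which the FPKM values of genes with at most 400 bases of exon became whole, within 0.1 read, for 98.7% to 99.5% of values.

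A gene was tested if 3 libraries or more reached 1 FPKM (12555 genes). The test, on log2(FPKM + 1), was that of limma 3.58.1 under R 4.3.3 (trend, two-sided, Benjamini-Hochberg threshold 0.05), with group as the single term. The fit was tested on simulated data. Chi-square per degree of freedom between replicates was 7.84 to 15.8, so no library was a copy. BLAST 2.17.0 measured identity. Alternatives were another pseudocount, 2 filters, 3 scalings, 2 variance models, a replicate block and leaving out each library. Named genes were all 9 markers, and of each list the called genes and the 2 with the highest mean FPKM. Cd244a, Cd79a, Proc, Kitl, Csf3r, Flt3, Il7r, Csf1r, Ly6i, Ly6c1 and the lineage markers were named after their values were seen. Members and lists were chosen with earlier results of these data known. All value columns were used. A few genes are not reported here and were left out of the lists, their counts and their medians.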

Additional observations from a re-analysis of the deposited data

How the results depend on the processing

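All 9 markers kept their direction in the 15 other settings except Kit and Cd34, whose changes were 0.11 and 0.046 after rescaling to TPM; with a library left out Kit ranged from -0.22 to 0.0027, above 0 without control library 2. Under TPM, Slamf1 moved to -0.18, Cd48 to -0.007 and Ly6a to -0.38; Cd48 ranged from -0.31 to -0.03 and Cd34 from -0.21 to -0.09 with a library left out. No marker other than Ly6a, Procr, Esam and Fgd5 was called in any setting. Ly6a kept a change of -0.58 but lost its call with no filter (adjusted p = 0.210), with eBayes without trend (0.0932) and with the replicate number as a block (0.0782), so that 0 markers were called lower there, and it ranged from -0.69 to -0.49 with a library left out, with 0 or 1 marker called lower. Procr was called at 0.37 with a mean of at least 5 FPKM (1 marker higher) and at 0.58 under TPM, where Esam (0.38) and Fgd5 (0.61) were called as well (3 markers higher). Same-numbered libraries did not deviate together (correlations -0.11, 0.04 and -0.08), and not every library correlated best with its own number, so the block pairs libraries by number only. Cd93 was not called with no filter, TPM, eBayes without trend or the block, nor Ndn with no filter, eBayes without trend or the block. TPM shifted the median of all genes to 0.19. For the ratio of Procr to Ly6a the log2 difference stayed between 0.91 and 1.01 in all 8 alternatives. Over all genes, 71 higher and 125 lower calls became 8 and 16 with no filter, 24 and 65 with eBayes without trend, 27 and 54 under the replicate block, 2016 and 128 under TPM, and 16 to 38 and 43 to 77 with a library left out. Higher calls were 112 with a mean of at least 5 FPKM and 112 with array weights. No filter tested 35246 genes, and left-out fits had fewer libraries; the other causes were not tested. Of 300 list counts under the alternatives, 37 moved by over 1.5 times, 20 upward and 17 downward. Depth limits Cd48 most, with an estimated 187 to 291 reads.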
